A study of Mus musculus with 4 samples.

Results

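The insulin-like growth factor (IGF) system was followed through 10 genes: the ligands Igf1 and Igf2, the receptors Igf1r and Igf2r, and the binding proteins Igfbp2 to Igfbp7. They were taken by gene symbol from a count table of 55487 mouse genes, and all 10 were found and passed the filter on low counts. Prx1-lineage skeletal progenitors were sorted by FACS from the hindlimbs of mice at postnatal day 1 as live GFP+ cells without CD45, Tie2 and Ter119, and polyadenylated RNA was sequenced. The 2 libraries labelled cKO (cKO 2 and cKO 3) stand, by the study's methods, for Ecsit fl/fl;Prx1-Cre;Rosa26 mTmG mice, and the 2 labelled WT (WT 2 and WT 3) for Prx1-Cre;Rosa26 mTmG mice. By the same methods both genotypes carry Prx1-Cre and the mTmG reporter, though the labels of the libraries conflict, as given below. Prx1-Cre is a recombinase driven in the mesenchyme of the limb buds and not in 1 cell type. The reporter turns cells with Cre activity green. Ecsit encodes an assembly factor of mitochondrial complex I, and the comparison asks which transcripts differ when it is deleted in these cells. No source used here says whether a library is from 1 mouse or from several, so p-values measure the spread between these libraries only.

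IGF1 and IGF2 are secreted growth factors of bone, cartilage and muscle. Both signal through IGF1R, a receptor tyrosine kinase that recruits insulin receptor substrates and activates PI3K and AKT, while IGF2R binds IGF2 without kinase activity and carries it to lysosomes. Binding proteins hold most IGF outside cells, some favouring 1 ligand, and proteases release it. Igf2 is imprinted and read from the paternal allele, next to the maternally read H19, and mouse Igf2r is read from the maternal allele, with the antisense RNA Airn made from the paternal one.

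The labels of these libraries conflict. Titles give cKO or WT, and are followed here. The genotype field puts the Prx1 deletion line under the titles WT, and under the titles cKO it has Ecsit fl/fl with no Cre named. Ecsit itself goes against the titles. It was read at 33.6 and 30.2 CPM in the libraries labelled cKO, against 12.6 and 18.9 CPM in those labelled WT (CPM are counts scaled to library size, here with TMM, the trimmed mean of M-values). Its log2 fold change, labelled cKO over labelled WT, was 1.02 (SE 0.25, adjusted p = 0.0245, edgeR). Counts cover the whole gene, so exons outside the deleted part can be among them. That concerns whether reads of Ecsit are present, and not which group has more. Of its 2490 exon bases, 598 are shared with Gm16845, a gene model on the opposite strand. How reads over these bases were assigned was not tested. Why Ecsit was higher in the libraries labelled cKO was not tested. Every direction below reverses if the groups were exchanged.

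Total counts ran from 18266573 to 20152872, and the sorted cells held Prrx1 at 194 to 265 CPM while Ptprc, which encodes CD45, was at 0.168 CPM or less. Tek, which encodes Tie2, was read at 34.6 and 28.8 CPM in cKO 2 and cKO 3, against 39.7 and 33.7 CPM in WT 2 and WT 3. Across genes, the fold changes fell as exon length grew: the median log2 fold change was 0.73 in the shortest of 10 length groups of protein-coding genes and -0.76 in the longest. The libraries labelled WT differed along the same axis, the median of WT 2 minus WT 3 being -0.62 in the shortest group and 0.51 in the longest. Xist was read in cKO 3 (188 CPM) and WT 2 (1121 CPM) and the Y-linked Ddx3y in cKO 2 (53.5 CPM) and WT 3 (76.2 CPM). By these transcripts WT 2 and WT 3 differed in sex, as did cKO 2 and cKO 3. Differences between WT 2 and WT 3 thus cannot be told apart from differences of sex. Markers of some other cells also moved with the labels. By the test described below, 14.1% of all genes tested were called higher and 14.3% lower. All 7 chondrocyte markers were lower in the libraries labelled cKO, with summed levels of 4200 and 4245 CPM, against 7142 and 14279 CPM in those labelled WT. Of 8 muscle markers tested 5 were higher, summing to 156 and 161 CPM against 33.0 and 47.8 CPM, with Pax7 at no more than 0.299 CPM. Of 6 erythroid markers tested 5 were higher, 1914 and 2018 CPM against 604 and 684 CPM, and all 5 fat markers tested were higher, 169 and 216 CPM against 65.5 and 78.9 CPM, with Adipoq at no more than 3.56 CPM. Of 5 haematopoietic markers tested Lyz2, C1qa and S100a8 were higher and Cd68 was lower, the list summing to 11.6 and 13.2 CPM against 11.1 and 13.5 CPM, with Cd3e at 0 in all libraries. Of 5 tendon markers tested 3 were higher (summed 1342 and 1343 CPM against 978 and 1257 CPM), of 5 Schwann and nerve markers 3 were lower (24.8 and 32.2 CPM against 26.1 and 32.4 CPM), and of 6 markers of pericytes and smooth muscle 1 was higher and 3 were lower (845 and 850 CPM against 669 and 998 CPM). Other lists moved little. Of 7 osteoblast markers tested 1 was lower, Runx2 (log2 fold change -1.75, adjusted p = 0.0127, edgeR). Of 12 markers of the sorted progenitors 1 was higher, of 7 endothelial markers 1 was higher, and of 4 keratinocyte markers 0 were called. With the gene length offset described below, 6 chondrocyte markers were lower, and 5 muscle, 4 erythroid, 5 fat and 2 tendon markers were higher. Of the haematopoietic markers 2 were then higher and 1 lower. Of those of pericytes and smooth muscle 1 was higher and 2 were lower, and of Schwann and nerve markers 3 were lower. Over all genes tested the offset gave 17% higher and 12.3% lower. What part the differences in markers have in the results on IGF genes was not tested. In bulk RNA, fewer cells of a type and less RNA per cell cannot be told apart.

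Of the 10 genes, Igfbp6 was higher and Igf1r was lower in the libraries labelled cKO, and 8 did not pass the test. A gene was called at an adjusted p under 0.05 (edgeR, Benjamini-Hochberg over the 16157 genes tested). Over all genes tested, 14.1% were called higher and 14.3% lower, so 1 of 10 in each direction is near the background. The members' median log2 fold change was 0.11, against -0.02 over all genes tested. Levels in the groups did not overlap for 8 members, 5 higher (Igfbp2, Igfbp3, Igfbp4, Igfbp6 and Igfbp7) and 3 lower (Igf1, Igf1r and Igfbp5), where 36.3% of all genes tested were higher without overlap and 36.2% lower.

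**Figure D1:**
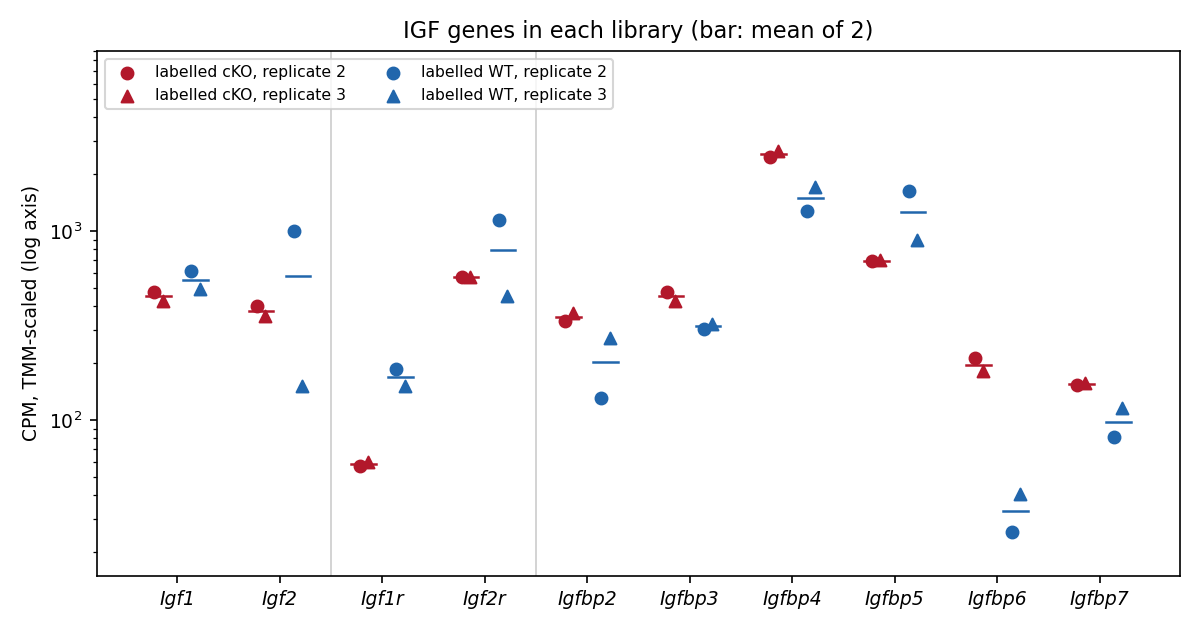
Level of each IGF gene in each library, in CPM scaled by TMM on a log axis, with libraries labelled cKO left of those labelled WT and a bar at the mean of each 2. Igf1r and Igfbp6 show the groups furthest apart, and Igf2 spans 151 to 1002 CPM within the libraries labelled WT.

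The promoter windows of the 2 called genes are shown because they are the members whose transcript levels differed by the test. Each runs from 250 bases before to 50 bases after the RefSeq start on GRCm38.p6 and is written 5′ to 3′ on the plus strand, that of both genes. Igfbp6 is at chr15:102143936-102144235 and Igf1r at chr7:67952007-67952306. Both windows end before the GENCODE starts of the genes, 102144362 for Igfbp6 and 67952827 for Igf1r. They thus cover no base of the gene models whose positions and lengths are used here. Capitals mark 3 promoter elements on either strand. They are the GC box (GGGCGG), the TATA box, whose letters are TATAAA, and the pentamer CCAAT of the so-called CCAAT box.
Igfbp6: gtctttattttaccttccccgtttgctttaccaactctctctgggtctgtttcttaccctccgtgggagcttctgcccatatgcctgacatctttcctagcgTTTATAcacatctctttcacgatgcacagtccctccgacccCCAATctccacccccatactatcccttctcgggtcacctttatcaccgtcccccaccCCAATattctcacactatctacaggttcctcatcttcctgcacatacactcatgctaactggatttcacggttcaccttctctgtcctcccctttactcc
Igf1r: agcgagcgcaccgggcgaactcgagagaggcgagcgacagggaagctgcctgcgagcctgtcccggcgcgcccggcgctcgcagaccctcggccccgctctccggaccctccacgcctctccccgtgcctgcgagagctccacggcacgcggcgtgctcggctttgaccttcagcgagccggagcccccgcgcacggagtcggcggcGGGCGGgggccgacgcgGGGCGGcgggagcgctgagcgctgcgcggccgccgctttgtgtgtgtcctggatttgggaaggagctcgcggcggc
Igfbp6 has 1 TATA box and 2 CCAAT boxes and no GC box in a window of 49.7% GC. The Igf1r window is 76% GC, with 2 GC boxes and neither of the other motifs. Of 32851 mouse windows of this length 35.7% hold a GC box, 13.6% a TATA box and 37.4% a CCAAT box. GTAAACA, the core of FOXO sites, and the E box CACGTG are in neither window, and 3.65% and 7.15% of all windows hold them. These are matches of letters only.

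Neither ligand passed the test. Igf1 (ENSMUSG00000020053.18, GRCm38 chromosome 10 from 87858265 to 87937042, plus strand) encodes the ligand that mediates much of the effect of growth hormone on bone. Its level was 474 and 428 CPM in cKO 2 and cKO 3, against 614 and 491 CPM in WT 2 and WT 3. All 4 levels were within a narrow range, with the higher group only just above the other. The log2 fold change was -0.29 (SE 0.23, 95% interval -0.83 to 0.24, adjusted p = 0.357), and it was 0.23 (adjusted p = 0.362) with a gene length offset, in which each library's trend of log2 CPM on exon length is taken out before the test. The sign for Igf1 thus changed with the scaling. Without WT 3 it was -0.44, and without WT 2 it was -0.12.

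Igf2 (ENSMUSG00000048583.16, chromosome 7 from 142650766 to 142666816, minus strand) encodes the main IGF of fetal growth. Its level was 403 and 353 CPM in cKO 2 and cKO 3, against 1002 and 151 CPM in WT 2 and WT 3. Both libraries labelled cKO lie between the 2 labelled WT, which differ 6.63-fold. A larger difference between WT 2 and WT 3 was seen in 0.446% of the genes tested. The log2 fold change was -0.61 (SE 0.68, 95% interval -2.16 to 0.95, adjusted p = 0.511). Without WT 2 it was 1.33, and without WT 3 it was -1.40, so a single library labelled WT decided its direction. Each of these fits leaves 1 library labelled WT and so holds no spread between libraries of that label. Of the exon bases of Igf2, 62.8% are shared with Gm49394, a gene model on the same strand with 0 counts in every library, and how reads over shared bases were assigned was not tested. The level of Igf2 in CPM and per length is uncertain for that reason, as are the ratios and ranks below that use it.

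Transcripts around Igf2 gave other orders. H19, a long noncoding RNA on the same imprinted domain, was read at 16437 and 14559 CPM in cKO 2 and cKO 3, against 7794 and 11130 CPM in WT 2 and WT 3. It did not pass the test (log2 fold change 0.71, SE 0.32, adjusted p = 0.127). The ratio of H19 to Igf2 was 40.7 and 41.2 in the libraries labelled cKO, against 7.78 and 73.6 in WT 2 and WT 3. WT 2 had the highest Igf2 and the lowest H19 of the 4 libraries, and WT 3 the lowest Igf2. Igf2os, which overlaps Igf2 on the opposite strand by 98 exon bases, was at 24.9 and 19.98 CPM against 34.8 and 16.6 CPM. No source used here names a strand setting for the counting, so reads of the overlap cannot be told apart.

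Of the receptors, Igf1r was lower and Igf2r was not called. Igf1r (ENSMUSG00000005533.10, chromosome 7 from 67952827 to 68233668, plus strand) encodes the receptor through which both ligands signal. Its level was 56.8 and 59.7 CPM in cKO 2 and cKO 3, against 187 and 151 CPM in WT 2 and WT 3. The libraries labelled cKO were close to each other and well below both labelled WT. The means were 58.3 ± 2.03 CPM and 169 ± 24.7 CPM (SD, n = 2 each), with the level 2.90-fold higher in the libraries labelled WT. The log2 fold change was -1.54 (SE 0.20, 95% interval -2.003 to -1.07, adjusted p = 0.0127). With the gene length offset it was -0.65 (adjusted p = 0.023), and Igf1r was called lower in all 13 alternatives tried. It has the longest exon sequence of the 10, 16791 bases, and its fold change lies 0.77 below the median of its length group (-0.76) but above the group's 10th percentile (-1.62).

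Igf2r (ENSMUSG00000023830.14, chromosome 17 from 12682406 to 12769664, minus strand) encodes the receptor that clears IGF2 and also sorts lysosomal enzymes. Its level was 568 and 570 CPM in cKO 2 and cKO 3, against 1140 and 453 CPM in WT 2 and WT 3. Both libraries labelled cKO again lie between the 2 labelled WT. The log2 fold change was -0.48 (SE 0.40, adjusted p = 0.371), and 0.06 (adjusted p = 0.899) with the gene length offset. Without WT 2 it was 0.34, and without WT 3 it was -0.998, the same dependence as for Igf2. A larger difference between the libraries labelled WT was seen in 4.18% of the genes tested. Airn, the antisense RNA that starts within Igf2r, was read at 20.3 and 20.8 CPM in the libraries labelled cKO, against 38.9 and 28.7 CPM in those labelled WT. It was called lower (log2 fold change -0.72, SE 0.23, adjusted p = 0.0477), and it shares no exon bases with Igf2r.

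Per kilobase of exon, the ratio of Igf2r to Igf1r was 18.03 and 17.2 in cKO 2 and cKO 3, against 11.02 and 5.39 in WT 2 and WT 3. The ratio of Igf2 to Igf1 was 1.47 and 1.43, against 2.82 and 0.532. The first ratio was higher in both libraries labelled cKO, and the second lay between those of the libraries labelled WT. A change of length scales a ratio by the same factor in every library, so both places are fixed whatever length is used. The sizes are not. Per kilobase of coding sequence the ratio of Igf2r to Igf1r was 5.51 and 5.26 against 3.37 and 1.65. That of Igf2 to Igf1 was 0.772 and 0.749 against 1.48 and 0.279. Which ligand was higher in the libraries labelled cKO thus depends on the length used.

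**Figure D2:**
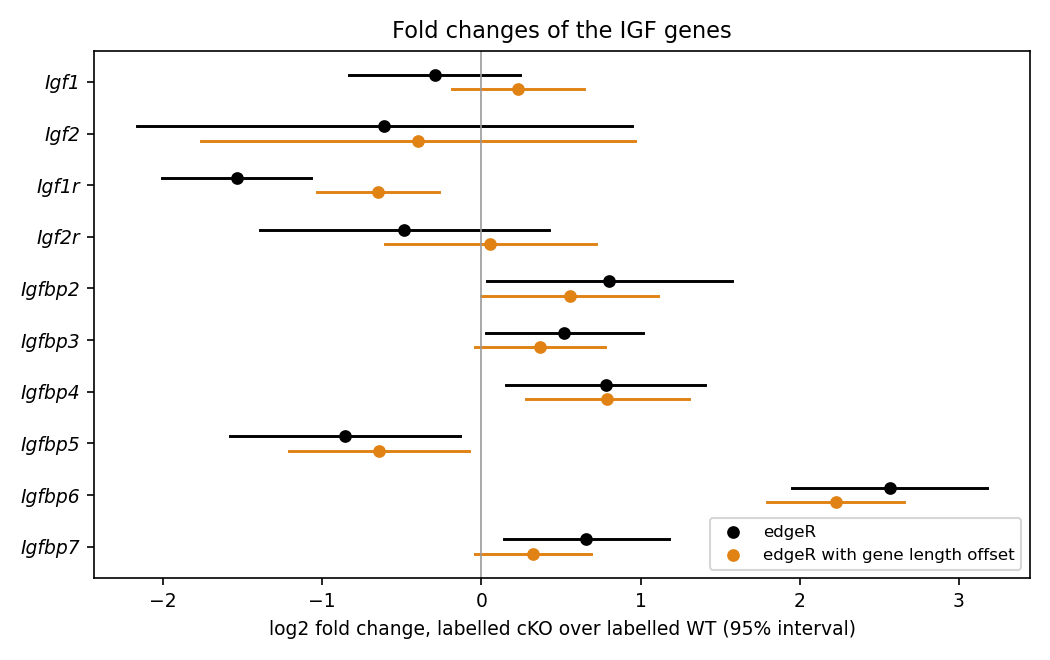
Log2 fold change, labelled cKO over labelled WT, of each IGF gene with its 95% interval, by edgeR (black) and with the gene length offset (orange). The intervals of Igf1r, Igfbp4, Igfbp5 and Igfbp6 lie clear of 0 under both, those of Igf1r and Igfbp6 with an adjusted p under 0.05 in each, while Igf1 and Igf2r change sign with the offset.

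Among the 6 binding proteins, 1 was higher and 5 did not pass the test. Igfbp6 (ENSMUSG00000023046.6, chromosome 15 from 102144362 to 102149511, plus strand) encodes a binding protein that prefers IGF2 to IGF1. It was read at 212 and 181 CPM in cKO 2 and cKO 3, against 25.7 and 40.7 CPM in WT 2 and WT 3. The groups were far apart, and each spread less than they differed. The means were 197 ± 22.2 CPM and 33.2 ± 10.6 CPM (SD, n = 2 each), a 5.92-fold difference. The fold change on the log2 scale was 2.57 (SE 0.27, 95% interval 1.95 to 3.18, adjusted p = 0.00926), and 2.23 (adjusted p = 0.00144) with the gene length offset. Igfbp6 was called higher in all 13 alternatives. It has 1112 exon bases, the fewest of the 10, and its fold change stood 1.83 above the median of its length group and above the group's 90th percentile (1.52). It was the only member outside the 10th to 90th percentile range of its length group. That range by definition leaves out 10% of a group at each end, so 1 of 10 members outside it is not unusual.

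Igfbp2 (ENSMUSG00000039323.18, chromosome 1 from 72824503 to 72852474, plus strand), a binding protein that can also bind integrins, was read at 336 and 370 CPM in cKO 2 and cKO 3, against 131 and 273 CPM in WT 2 and WT 3. WT 3 was nearer to the libraries labelled cKO than to WT 2. For Igfbp2 the log2 fold change was 0.80 (SE 0.33, adjusted p = 0.101). Igfbp4 (ENSMUSG00000017493.12, chromosome 11 from 99041244 to 99054392, plus strand), the substrate of the protease PAPP-A, had the highest mean level of the members in both groups, at 2477 and 2663 CPM against 1272 and 1720 CPM, though Igfbp5 was above it in WT 2. Its log2 fold change was 0.78 (SE 0.27, adjusted p = 0.0631), and 0.79 (adjusted p = 0.0306) with the gene length offset, under which it was called. The offset thus gave 2 of 10 members higher and 1 lower, beside 17% and 12.3% of all genes tested.

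Igfbp7 (ENSMUSG00000036256.13, chromosome 5 from 77349240 to 77408041, minus strand), which binds IGFs weakly, was read at 154 and 157 CPM in cKO 2 and cKO 3, against 80.8 and 115 CPM in WT 2 and WT 3. Its log2 fold change was 0.66 (SE 0.23, adjusted p = 0.0595), and 0.32 (adjusted p = 0.155) with the offset. Of its exon bases 7.03% are shared with Polr2b on the opposite strand. Igfbp3 (ENSMUSG00000020427.11, chromosome 11 from 7206086 to 7213923, minus strand), the main IGF carrier of blood, was read at 474 and 428 CPM against 305 and 324 CPM. Its log2 fold change was 0.52 (SE 0.21, adjusted p = 0.0983). For both genes the groups did not overlap and the test was not passed.

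Igfbp5 (ENSMUSG00000026185.8, chromosome 1 from 72857932 to 72874884, minus strand), a binding protein that attaches to bone mineral and matrix, ran the other way. It was read at 692 and 701 CPM in cKO 2 and cKO 3, against 1623 and 897 CPM in WT 2 and WT 3. WT 3 was again the nearer of the libraries labelled WT. For Igfbp5 the log2 fold change was -0.86 (SE 0.31, adjusted p = 0.0729). Igfbp5 lies next to Igfbp2 with the 2 genes pointing at each other, and the ratio of Igfbp5 to Igfbp2 per kilobase was 0.634 and 0.583 in the libraries labelled cKO, against 3.82 and 1.01 in those labelled WT. Per kilobase of coding sequence it was 2.32 and 2.13 against 13.98 and 3.69. Whether Igfbp5 was below Igfbp2 in the libraries labelled cKO thus depends on the length used. The order of the libraries in this ratio cannot change with the length. By adjusted p alone, DESeq2 called Igfbp2 (adjusted p = 0.0385), Igfbp4 (0.00731) and Igfbp7 (0.0373) higher and Igfbp5 (0.0147) lower besides the 2 genes that edgeR called, beside 14.1% higher and 13.5% lower of all genes with an adjusted p. With the study's limit on the shrunken log2 fold change as well, Igfbp7 was not called, which left 3 members higher and 2 lower. The share of all genes that pass this limit was not worked out, so these counts have no background beside them.

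Levels of different genes were compared per kilobase of exon. Igfbp4 ranked first in both groups, at 582 ± 29.7 CPM per kilobase in the libraries labelled cKO and 339 ± 71.7 in those labelled WT (SD, n = 2 each), and Igf1r ranked last, at 3.47 ± 0.121 and 10.1 ± 1.47. In the libraries labelled cKO the order after Igfbp4 was Igfbp2, Igfbp6, Igfbp3, Igfbp7, Igfbp5, Igf2, Igf2r and Igf1. Igfbp2 and Igfbp6 there differed by less than the larger of their SDs, as did Igf2 and Igf2r. In the libraries labelled WT it was Igfbp5, Igfbp2, Igf2, Igfbp3, Igf2r, Igfbp7, Igf1 and Igfbp6, and from Igfbp2 to Igfbp7 each neighbour was within the larger SD of the pair. Igfbp6 was thus at rank 3 of 10 in the libraries labelled cKO (177 ± 19.96) and at rank 9 in those labelled WT (29.8 ± 9.52). Most of this order depends on the length used. Per kilobase of coding sequence Igfbp4 was still at rank 1 and Igf1r at rank 10 in both groups, but in the libraries labelled cKO Igfbp6 was at rank 7, Igfbp5 at rank 2, Igf1 at rank 3, Igf2 at rank 4 and Igfbp2 at rank 6.

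In the mix of binding protein transcripts per kilobase of exon, the shares of Igfbp4, Igfbp5 and Igfbp6 did not overlap between the groups, those of Igfbp4 only just. Levels without overlap were common, at 36.3% higher and 36.2% lower of all genes tested. Of the summed level per kilobase of exon of the 6 binding proteins, Igfbp6 took 14.4% and 12.1% in cKO 2 and cKO 3, against 2.83% and 3.97% in WT 2 and WT 3. Igfbp5 took 8.68% and 8.65%, against 33.1% and 16.2%. Igfbp4 took the largest share in each library on this scale, 42.3% and 44.7% against 35.3% and 42.2%. The shares of Igfbp2, Igfbp3 and Igfbp7 in the libraries labelled cKO overlapped those in the libraries labelled WT, all within 8.19% to 16.0%. The summed level itself was 1327 and 1349 CPM per kilobase, against 816 and 922. Per kilobase of coding sequence Igfbp6 took 5.72% and 4.71% against 0.870% and 1.42%, Igfbp5 16.4% and 16.03% against 48.2% and 27.5%, and Igfbp4 57.3% and 59.5% against 36.9% and 51.4%. The shares thus depend on the length used, and in WT 2 Igfbp5 then stood above Igfbp4. Igfbp4, Igfbp5 and Igfbp6 kept the side on which the libraries labelled cKO lay. Igfbp7 took 3.15% and 3.10% of the level per kilobase of coding sequence, against 2.08% and 3.06%, so its shares then did not overlap, though only just.

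**Figure D3:**
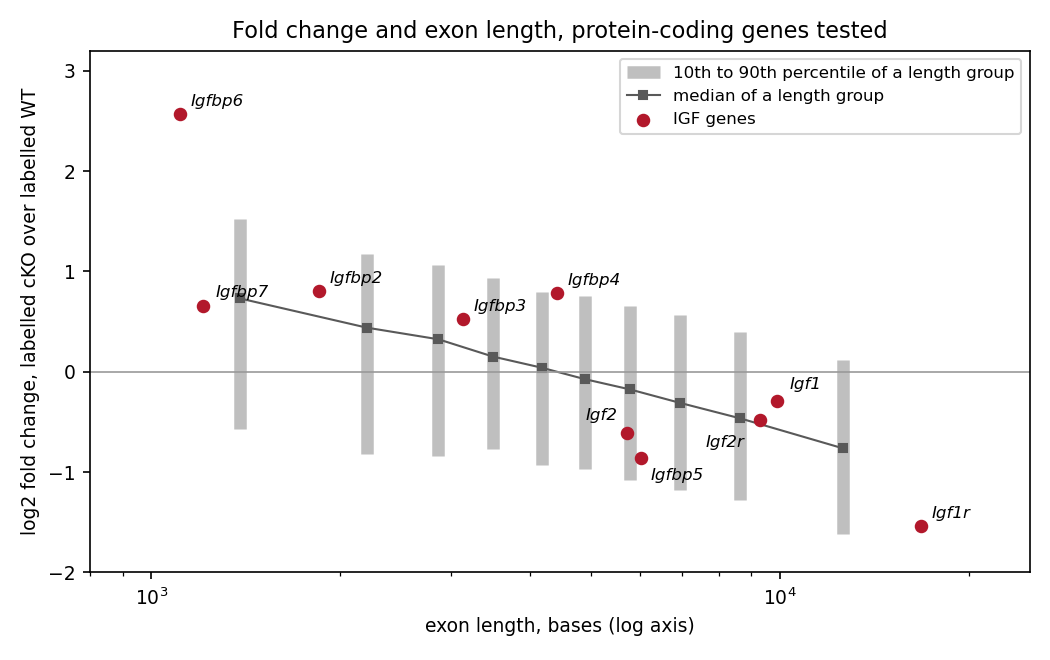
Log2 fold change against exon length in bases on a log axis for the IGF genes (red), with the median (squares) and 10th to 90th percentile range (grey) of 10 length groups of protein-coding genes tested, each drawn at its median length. Short IGF genes lie above 0 and long ones below, as the group medians do, and Igfbp6 stands above the range of its group.

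The fold changes of the 10 genes ran with exon length. Spearman's rho between them was -0.83 across the 10 genes and -0.488 across 13888 protein-coding genes, and -0.782 across the 10 with the gene length offset. Genes are not independent replicates and all points share the same 4 libraries, so these are descriptions. The difference between WT 2 and WT 3 ran with length as well, with a rho of 0.721 across the 10 genes. All 8 members whose groups did not overlap had WT 3 nearer than WT 2 to the libraries labelled cKO, which held for 73.8% of all genes tested whose groups did not overlap. With 2 libraries of each label, the label and this axis cannot be told apart.

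**Figure D4:**
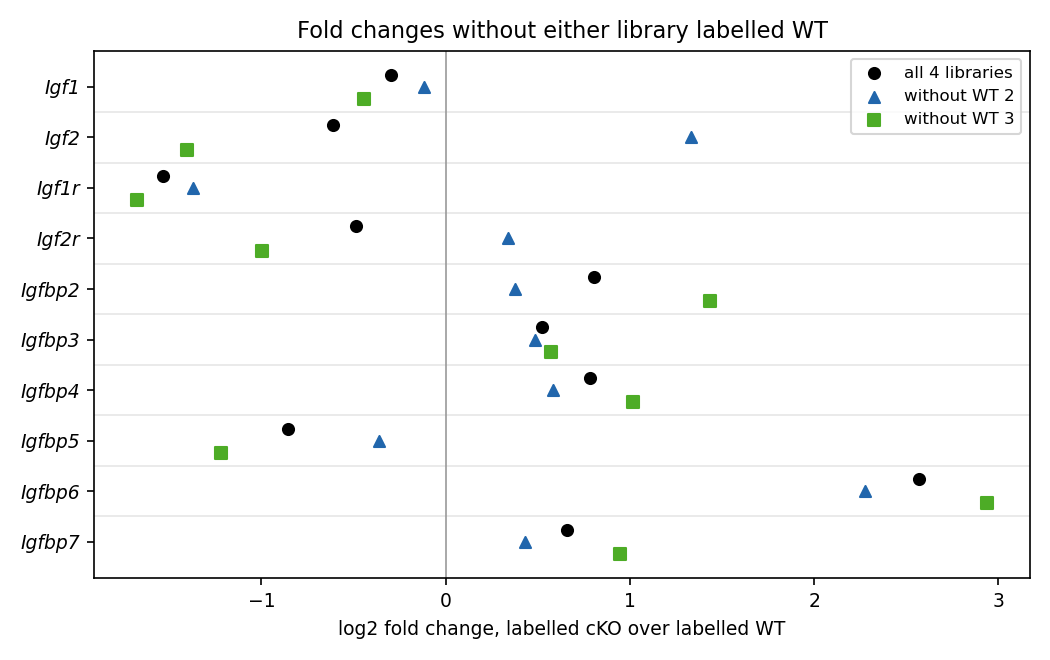
Log2 fold change of each IGF gene from all 4 libraries (circles), without WT 2 (triangles) and without WT 3 (squares). Igf2 and Igf2r lie on opposite sides of 0 when one or the other library labelled WT is left out, and every other gene keeps its side.

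The number of members called turned on the libraries labelled WT. Without WT 2, 7 were called higher and 2 lower, beside 17.8% and 15% of all genes tested. Without WT 3, 5 were called higher and 5 lower, beside 26.2% and 25%, with Igf2 and Igf2r changing sides. Without cKO 2 (3.03% and 2.98% of all genes tested) or without cKO 3 (2.91% and 4.35%), 1 was higher and 1 lower, Igfbp6 and Igf1r each time. The lone library of a group was assumed to vary like the pair of the other group, and the pair labelled cKO is the more alike (r of log2 CPM 0.986 across genes, against 0.97).

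Other genes of the pathway were counted in lists, 97 genes besides the members, of which 87 were tested. In the libraries labelled cKO 11 were higher and 27 lower, beside 14.1% and 14.3% of all genes tested, and with the gene length offset 14 and 18, beside 17% and 12.3%. Without cKO 2 these counts were 4 and 4, without cKO 3 they were 2 and 5, without WT 2 they were 19 and 27, and without WT 3 they were 21 and 47. The shares of all genes tested called in these fits, given above for each, moved with them. Among relatives of the members, Ins1 and Ins2 (insulin), Igfbp1, Igfbpl1 and Igfals were at 0.499 CPM or less and were not tested. The insulin receptor Insr was lower, at 24.9 and 22.4 CPM in cKO 2 and cKO 3 against 57.5 and 36.2 CPM in WT 2 and WT 3 (log2 fold change -0.99, adjusted p = 0.0294), but not with the offset (-0.20, adjusted p = 0.392). Its relative Insrr was lower (-2.75, adjusted p = 0.0204) at no more than 1.35 CPM.

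**Figure D5:**
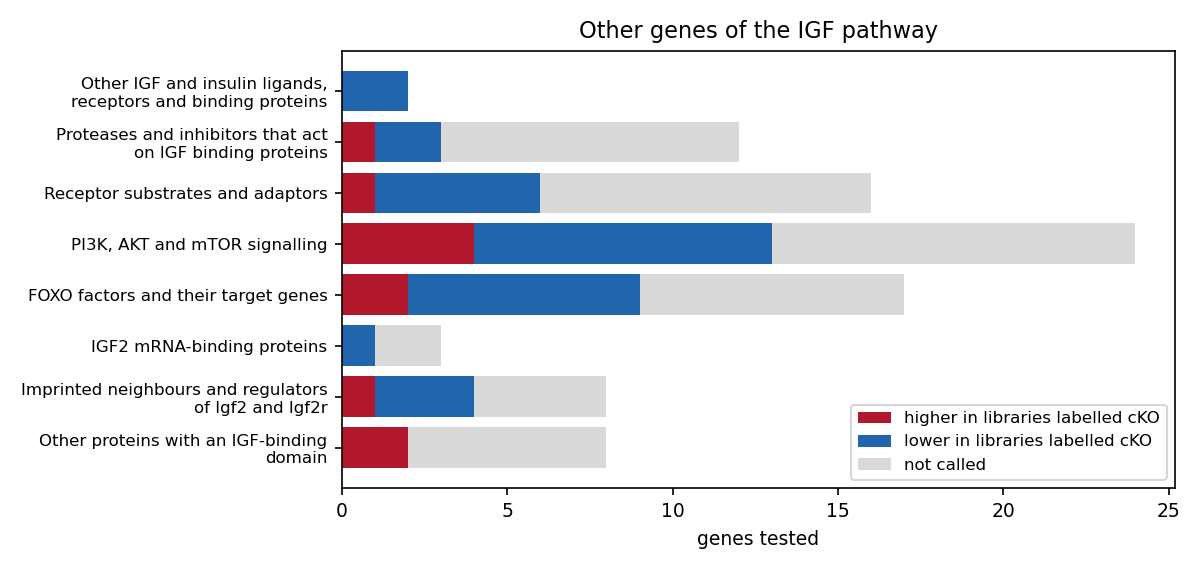
Number of genes tested in each list of the IGF pathway that were higher (red), lower (blue) or not called (grey) in the libraries labelled cKO. Signalling lists hold genes called in both directions, such as 4 higher and 9 lower among PI3K, AKT and mTOR genes.

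Of 12 proteases and inhibitors that act on binding proteins, 1 was higher and 2 lower, with a median log2 fold change of -0.16 (-0.02 over all genes tested). Pappa, the protease that cleaves IGFBP4, was at 5.01 and 6.73 CPM in cKO 2 and cKO 3, against 21.1 and 9.26 CPM in WT 2 and WT 3 (log2 fold change -1.37, adjusted p = 0.0384). Pappa2, which cleaves IGFBP3 and IGFBP5, was at 20.7 and 13.1 CPM against 62.2 and 29.2 CPM (-1.43, adjusted p = 0.0293). Neither passed with the offset (adjusted p = 0.101 and 0.0517). The lysosomal protease Ctsd was higher (0.80, adjusted p = 0.0427), and Mmp2 (-0.04) and Htra1 (0.28), of high level, were not called. Of 8 other genes with an IGF-binding domain tested, with a median of 0.16, the CCN family members Ccn3 (1.27, adjusted p = 0.0142) and Ccn5 (1.54, adjusted p = 0.0429) were higher. With the offset the median of these 8 was -0.11, with 2 higher and 1 lower.

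Below the receptor, 1 of 16 substrates and adaptors was higher and 5 were lower, with a median log2 fold change of -0.20. With the offset 2 were higher and 4 lower, and the median was 0.11. Irs2, a docking protein of both the IGF1 and insulin receptors, was at 98.1 and 124 CPM in cKO 2 and cKO 3, against 462 and 229 CPM in WT 2 and WT 3 (log2 fold change -1.64, adjusted p = 0.0177). Its relative Irs1 was at 18.04 and 18.4 CPM against 63.1 and 9.26 CPM and was not called, with the libraries labelled WT on both sides as for Igf2. Lower with it were the docking protein Gab1 (-1.01, adjusted p = 0.0167), the RAS exchange factors Sos1 (-1.02, adjusted p = 0.0468) and Sos2 (-0.98, adjusted p = 0.0257) and the phosphatase Ptpn1 (-0.74, adjusted p = 0.0422). Of these 5, Sos1 was not called with the offset (adjusted p = 0.192). Rack1, a scaffold that binds IGF1R and is also a part of the ribosome, was higher (1.74, adjusted p = 0.0146), and Grb10 (0.09) and Socs3 (0.29) were those of highest level per kilobase of exon that were not called.

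Of 24 genes of PI3K, AKT and mTOR signalling, 4 were higher and 9 lower, or 6 and 4 with the offset. The list's median log2 fold change was -0.55, and 0.01 with the offset, against -0.02 over all genes tested. Higher were Akt1, at 716 and 744 CPM in cKO 2 and cKO 3 against 393 and 455 CPM in WT 2 and WT 3 (log2 fold change 0.78, adjusted p = 0.0373), Akt2 (0.91, adjusted p = 0.0197), the regulatory subunit Pik3r2 (1.23, adjusted p = 0.0137) and Eif4ebp1, a translation repressor under mTORC1 (1.18, adjusted p = 0.0244). The 4 lower genes with the smallest p were Rictor, the defining subunit of mTORC2 (-1.79, adjusted p = 0.0153), the regulatory subunit Pik3r3 (-1.24, adjusted p = 0.0167), the kinase Gsk3b (-1.15, adjusted p = 0.0187) and the mTOR inhibitor Deptor (-1.04, adjusted p = 0.0197). Deptor did not pass with the offset (adjusted p = 0.0824). Genes that promote and genes that restrain the pathway were found in both directions.

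FOXO factors are held out of the nucleus by AKT, and 2 of 17 FOXO genes and targets tested were higher and 7 lower, with a median log2 fold change of -0.16. Klf15 (log2 fold change 1.53, adjusted p = 0.017) and Cited2 (0.64, adjusted p = 0.0498) were higher. Bcl6 (-1.60, adjusted p = 0.0142), Irs2, Foxo3 (-1.03, adjusted p = 0.0229) and Sesn3 (-1.08, adjusted p = 0.0239) were the lower ones with the smallest p, and Sesn3 and Cited2 were not called with the offset (adjusted p = 0.327 and 0.0758). Of the 3 IGF2 mRNA-binding proteins, Igf2bp1 was lower, at 27.7 and 27.8 CPM in cKO 2 and cKO 3 against 68.5 and 54.9 CPM in WT 2 and WT 3 (-1.15, adjusted p = 0.0149), and Igf2bp2 (-0.23) and Igf2bp3 (-0.28) were not called. Of 8 imprinted neighbours and regulators tested, with a median log2 fold change of -0.58, 1 was higher and 3 lower. The growth inhibitor Cdkn1c was higher, at 4080 and 4068 CPM against 1273 and 2062 CPM (1.29, adjusted p = 0.024). Zfp57, which keeps imprints in the early embryo, was lower, at 18.6 and 18.5 CPM against 55.0 and 63.6 CPM (-1.68, adjusted p = 0.0117), as were Plagl1, a zinc finger factor of the imprinted network (-1.06, adjusted p = 0.0288), and Airn. Peg3 was not called (-1.04, adjusted p = 0.0714).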

How the data were processed

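The authors deposited raw counts per gene for 4 libraries, not normalized and not pooled. The study's methods describe mm10, STAR, a GENCODE annotation and featureCounts, while the submitters' processing notes give HTSeq 0.11.3 with STAR 2.6.1b, the human build GRCh38.p12 and DESeq2 1.28.1. The table does not say which made it, so how ambiguous and antisense reads were treated is not known. Gene positions and exon lengths are from GENCODE vM21 on GRCm38, which holds 99.5% of the table's gene identifiers. In R 4.3.3 with edgeR 4.0.16, genes passed filterByExpr (minimum count 10), were scaled by TMM and tested for cKO against WT by quasi-likelihood with no covariate, with Benjamini-Hochberg adjustment over 16157 genes. DESeq2 1.42.0 and ashr 2.2.63, the study's tools, were an alternative by adjusted p alone, and, added after the data were seen, with the study's limit on the log2 fold change. The gene length offset was a lowess of log2 CPM (pseudocount 0.5) on log10 exon length per library (span 0.3). The members and lists were chosen with earlier results of these data known. Text names all members, and per list all genes called in a direction if 5 or fewer, otherwise the 4 with the smallest p, and up to 2 genes of highest level per kilobase not called. The files hold no authors' fold changes. All 10 members matched RefSeq promoter windows.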

Additional observations from a re-analysis of the deposited data

How the results depend on the processing

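Igf1r and Igfbp6 kept their direction and their call under all 13 alternatives, with log2 fold changes of -1.68 to -0.64 and 2.23 to 2.94. The count of members higher, 1 by edgeR, was 4 with DESeq2 with or without ashr (14.1% of all genes), 3 with ashr and the study's limit on the log2 fold change (chosen after seeing the data), 2 with the gene length offset (17%), 3 with the replicate block (16.2%), 2 with the replicate block and the offset together (18.6%), and 1 to 7 when a library was left out (2.91% to 26.2%). Members lower, 1 by edgeR, were 2 with DESeq2 with or without ashr (13.5%), 2 with ashr and that limit, and 1 to 5 when a library was left out (2.98% to 25%). Pathway genes higher, 11 by edgeR, were 6 without a filter on low counts (2.77%) and 2 to 21 when a library was left out, and those lower, 27 by edgeR, were 6 (2.12%) and 4 to 47. Igf1 changed sign with the offset (0.23) and with the offset and replicate block (0.23), Igf2r with the same settings (0.057 and 0.14) and without WT 2 (0.34), and Igf2 with the offset and block (0.11) and without WT 2 (1.33). Without WT 3 the values were -1.40 for Igf2 and -0.998 for Igf2r. The causes were not tested. For the counts under ashr with the limit, no share of all genes was worked out. Numbers 2 and 3 are shared by the labels, but same-numbered libraries did not deviate together (r of their deviations -0.0894 across 16157 genes), so the block is no pairing of samples. Under the block Igfbp2 (adjusted p = 0.022) and Igfbp7 (0.0453) were called as well. Other scalings moved the median log2 fold change of all genes by less than 0.1. With 2 libraries per label, an effect of Ecsit deletion, the axis of gene length, the cell mix and the conflict of labels cannot be told apart for any of these genes.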
